A study of Drosophila melanogaster with 16 samples.

Results

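Insulin signalling genes were followed through 16 RNA-seq libraries of adult male Drosophila melanogaster heads. The members were a named set of 9 genes, of 17489 genes listed in the count tables: the receptor gene InR, the adaptor gene chico, the transcription factor gene foxo, its target Thor, the binding protein gene ImpL2 and the insulin-like peptide genes Ilp2, Ilp3, Ilp5 and Ilp6. They were chosen by name and by a known place in the pathway, not by a threshold on these counts, and all 9 were tested in every comparison. The choice was made with earlier results of these data known.

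In flies, insulin-like peptides are released into the circulation and bind one receptor tyrosine kinase, InR. The receptor signals through the adaptor Chico and the kinases PI3K and Akt, which keep the transcription factor Foxo out of the nucleus. When signalling is low, Foxo enters the nucleus and switches on genes such as InR itself and Thor, the fly 4E-BP, which holds back cap-dependent translation. Ilp2, Ilp3 and Ilp5 are made mainly by a small cluster of insulin-producing neurons in the brain, Ilp6 is made largely in the fat body, and ImpL2 is a secreted protein that binds the peptides and antagonises them.

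All flies carried the genotype Gr5a>UAS-Rpl3-3XFLAG, in which the Gr5a-GAL4 driver puts a FLAG-tagged ribosomal protein into cells that use the Gr5a promoter, named for a sweet taste receptor. Ribosomes with the tag were pulled down and their RNA sequenced (the Gr5a fraction). Total RNA taken from the head lysate, whose remainder went to the pull-down, served as input. Flies of the 7-day and 14-day groups went onto the sugar diet (SD, 30% sucrose) or the control diet (CD, 5% sucrose) at day 5. Input libraries came from SD7 (2 libraries, 7 days of sugar diet) and CD7 (3 libraries, 7 days of control diet), collected at day 12. Libraries of the Gr5a fraction came from SD3 (2 libraries, 3 days of sugar diet), SD7 (2 libraries), CD7 (3 libraries), SD>CD (2 libraries, 7 days of sugar diet and then 7 days of control diet, collected at day 19) and CD>CD (2 libraries, control diet throughout). The days on which the SD3 diet began and ended were not given in the labels used here. Each replicate pooled 300 heads, so a library shows the mean of many flies and no single animal. The tissue is the whole head, which holds brain, eyes, head fat body and muscle, and the driver marks few of its cells.

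Gene counts per library ranged from 22901154 to 55290069. Levels are normalised read counts in CPM, that is, counts scaled to the library total and a TMM normalisation factor of the library. Marker sums and opposite-strand reads were scaled to the library total alone. The 7 sweet taste neuron markers summed to 102 to 147 CPM in the Gr5a fraction of CD7, against 6.99 to 9.95 CPM in the input of CD7, and all 7 passed the test as higher. Pulled-down RNA still held transcripts of other head cells, with photoreceptor markers at 8787 to 14970 CPM in the Gr5a fraction of CD7 against 20170 to 25430 CPM in the input. Libraries that stood apart or went against a label were in the 14-day groups. The SD>CD group rests on the condition label of its libraries, which their titles contradict by reading CD>CD. Lsp2, a fat body storage protein gene, was at 684 CPM in CD>CD replicate 1 and at 1.62 CPM in CD>CD replicate 2, while the Gr5a fraction had 0.453 to 0.906 CPM in SD3, 0.794 and 4.54 CPM in SD7 and 123 to 363 CPM in CD7. In SD>CD, midgut markers summed to 9.42 and 17.5 CPM, against 1030 to 2652 CPM in CD>CD, testis markers to 0.349 and 1.09 CPM, against 26.1 and 66.7 CPM, and accessory gland markers to 0.126 and 0.131 CPM with SP and Acp26Aa at 0, against 8.87 and 14.4 CPM.

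The genes lie apart on the genome (BDGP6, the dm6 assembly) except for the brain peptide cluster. Ilp2 (3L:9799698-9800440), Ilp3 (3L:9801298-9802120) and Ilp5 (3L:9823349-9823897) sit close together on 3L. Ilp2 and Ilp3 lie within the span of CG32052, Ilp2 on its strand and Ilp3 on the other, and Ilp5 lies opposite CG43897. ImpL2 (3L:4224006-4236147) shares exonic bases with CG46460 on its own strand. Thor (2L:3478434-3479612) and chico (2L:10242512-10247078) are on 2L, and exons of chico overlap an antisense RNA, asRNA:CR44995. Ilp6 (X:2331493-2334658) overlaps Raf on the other strand, and foxo is at 3R:14056945-14087978. InR overlaps lncRNA:CR44034 on its own strand and lncRNA:Irar on the other. The count tables list InR as FBgn0013984, an identifier that the name table used here lacks. The current annotation holds InR as FBgn0283499 at 3R:21570248-21619321, and its exon length was used for levels per kilobase. Counts per library ran from 3908 to 16299 for InR, from 1055 to 8579 for Thor, from 93 to 860 for Ilp2, from 11 to 150 for Ilp5 and from 3 to 136 for Ilp3, so the last pair rested on few reads.

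Compared per kilobase of exon in the input of CD7, Thor and ImpL2 were the most abundant at 93.3 ± 4.0 and 84.9 ± 12.7 CPM per kb (SD, n = 3), and their ranges overlapped. Next came foxo at 35.4 ± 0.65 CPM per kb, chico at 24.6 ± 1.5, Ilp6 at 23.2 ± 0.22, Ilp2 at 22.8 ± 8.5 and InR at 14.7 ± 1.5 CPM per kb (SD, n = 3). Ilp6 and Ilp2 overlapped in this order, whereas foxo, chico and InR did not overlap their neighbours. Ilp2, at 16.5 to 32.5 CPM per kb, also spanned the whole range of chico (23.6 to 26.3), so chico and Ilp2 were not set apart. Ilp5 at 5.84 ± 1.97 and Ilp3 at 2.17 ± 0.60 CPM per kb (SD, n = 3) were the lowest. In the Gr5a fraction of CD7 the order was Thor at 147 ± 26, ImpL2 at 88.7 ± 17.0, foxo at 53.5 ± 1.6, chico at 28.5 ± 3.8, InR at 18.02 ± 0.81, Ilp6 at 15.3 ± 0.83, Ilp2 at 8.25 ± 2.68, Ilp5 at 2.13 ± 0.79 and Ilp3 at 0.701 ± 0.513 CPM per kb (SD, n = 3), with no overlap between neighbours. On the control diet the receptor RNA thus stood above Ilp6 and Ilp2 in the pulled-down RNA and below them in the input.

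To ask how a week of dietary sugar changed the pathway in the whole head, input SD7 was compared with input CD7. InR was the only member that passed the test, and it was higher on the sugar diet. Thor was higher in both sugar libraries by nearly as much but missed the threshold. The peptide genes of the insulin-producing neurons did not pass the test, and their estimates differed in sign.

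InR, the receptor gene, had 314 and 318 CPM in input SD7, against 153, 163 and 186 CPM in input CD7. Both sugar libraries lay well above all 3 control libraries, with means of 316 ± 2.8 and 167 ± 17 CPM (SD, n = 2 and n = 3), a ratio of 1.89. The log2 fold change was 0.93 ± 0.11 (SE, edgeR adjusted p = 0.0214). Of the 9 members InR was the single call, while 0.0705% of 14185 genes tested were called (10 genes, 0.0282% higher and 0.0423% lower). An unadjusted p under 0.05 was reached by 3 members (InR, Thor and chico) and by 18.8% of all genes. The call rested on individual libraries, since without input CD7 replicate 1, input CD7 replicate 2 or input SD7 replicate 1 the log2 fold change was 0.86, 0.91 or 0.93 and the edgeR adjusted p was 0.16, 0.153 or 0.164.

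Thor, the 4E-BP gene, had 112 and 137 CPM in input SD7, against 73.6, 67.5 and 70.2 CPM in input CD7. The groups did not overlap, and the ratio of means was 1.77. Its log2 fold change was 0.84 ± 0.16 (SE, edgeR adjusted p = 0.128), and it was called by the DESeq2 Wald test (adjusted p = 0.00229). Over 12 alternatives the adjusted p ran from 0.00229 to 0.395, and 5 of them called Thor, among them the fit without input SD7 replicate 2 (0.67 on the log2 scale, adjusted p = 0.0932).

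**Figure D1:**
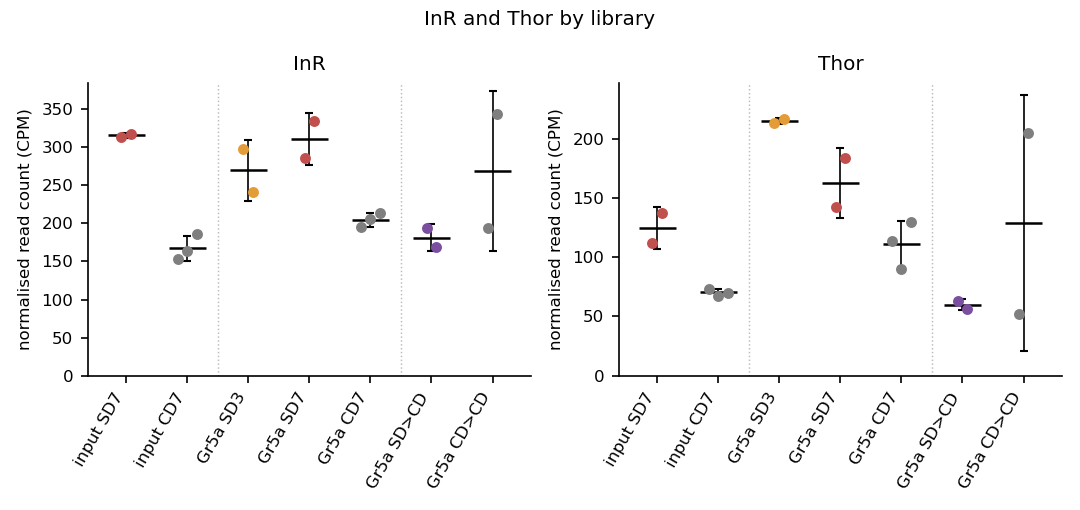
Normalised read count (CPM, linear axis from 0) of InR and Thor in every library. Points are libraries, horizontal bars the group means and error bars the SD (n = 2 or 3), with dotted lines between the input, the day-7 Gr5a and the 14-day groups. InR sits at 314 and 318 CPM in input SD7, against 153 to 186 CPM in input CD7, and CD>CD replicate 2 lies far above replicate 1 for both genes.

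The adaptor gene chico had 117 and 107 CPM in input SD7, against 85.0, 84.3 and 94.2 CPM in input CD7, without overlap (log2 fold change 0.36 ± 0.13 SE, edgeR adjusted p = 0.215). For foxo the values were 173 and 141 CPM in SD7 and 145, 145 and 149 CPM in CD7, so that the single SD7 libraries fell on either side of the controls (0.11 ± 0.10 SE on the log2 scale, edgeR adjusted p = 0.55). ImpL2 had 287 and 213 CPM in SD7, against 262, 223 and 194 CPM in CD7, with overlapping groups (0.15 ± 0.21 SE on the log2 scale, edgeR adjusted p = 0.717). The RNA of the transcription factor and of the binding protein therefore gave no difference beyond the spread between libraries.

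Among the peptide genes, Ilp2 had 13.7 and 7.15 CPM in input SD7, against 21.8, 13.0 and 11.1 CPM in input CD7, with overlapping groups at -0.55 ± 0.38 on the log2 scale (SE, edgeR adjusted p = 0.425). Ilp5 had 2.12 and 1.09 CPM in SD7, against 3.17, 3.49 and 1.72 CPM in CD7 (-0.80 ± 0.48 SE on the log2 scale, edgeR adjusted p = 0.369). Ilp3 ran the other way, at 3.56 and 2.61 CPM in SD7 against 2.03, 1.14 and 1.72 CPM in CD7, and did not overlap (0.93 ± 0.61 SE on the log2 scale, edgeR adjusted p = 0.401). Ilp6, the fat body peptide gene, had 69.0 and 55.1 CPM in SD7, against 55.8, 56.4 and 55.4 CPM in CD7 (0.16 ± 0.11 SE on the log2 scale, edgeR adjusted p = 0.439). None of these peptide genes passed the test in this comparison. Taken over the members, 4 of 9 (InR, Thor, chico and Ilp3) had non-overlapping libraries, all higher in SD7, while 48% of the 11512 genes with a mean of at least 1 CPM did not overlap in either direction.

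Other cell types moved with the diet in the same input libraries. The 6 fat body markers summed to 8193 and 11900 CPM in SD7, against 13460 to 19330 CPM in CD7, and of them Lsp2 passed the test as lower (log2 fold change -7.18 ± 1.02 SE, edgeR adjusted p = 0.0664). The 8 midgut markers summed to 145 and 452 CPM in SD7, against 740 to 1017 CPM in CD7, with Jon25Bii at 0 in SD7. Dsk, a peptide gene also made by the insulin-producing neurons, had 11.2 and 15.1 CPM in SD7, against 11.6 to 18.1 CPM in CD7. Neuron markers summed to 4081 and 4857 CPM in SD7, against 3523 to 3726 CPM in CD7, and all 4 had higher estimates with none called (edgeR adjusted p of 0.174 to 0.249). Testis markers summed to 103 and 227.5 CPM in SD7, against 241.5 to 346.6 CPM in CD7, and accessory gland markers to 25.1 and 67.6 CPM, against 101 to 146 CPM. The part of these shifts in the InR and Thor values was not tested. In bulk RNA, fewer cells of a type and less RNA per cell cannot be told apart.

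**Figure D2:**
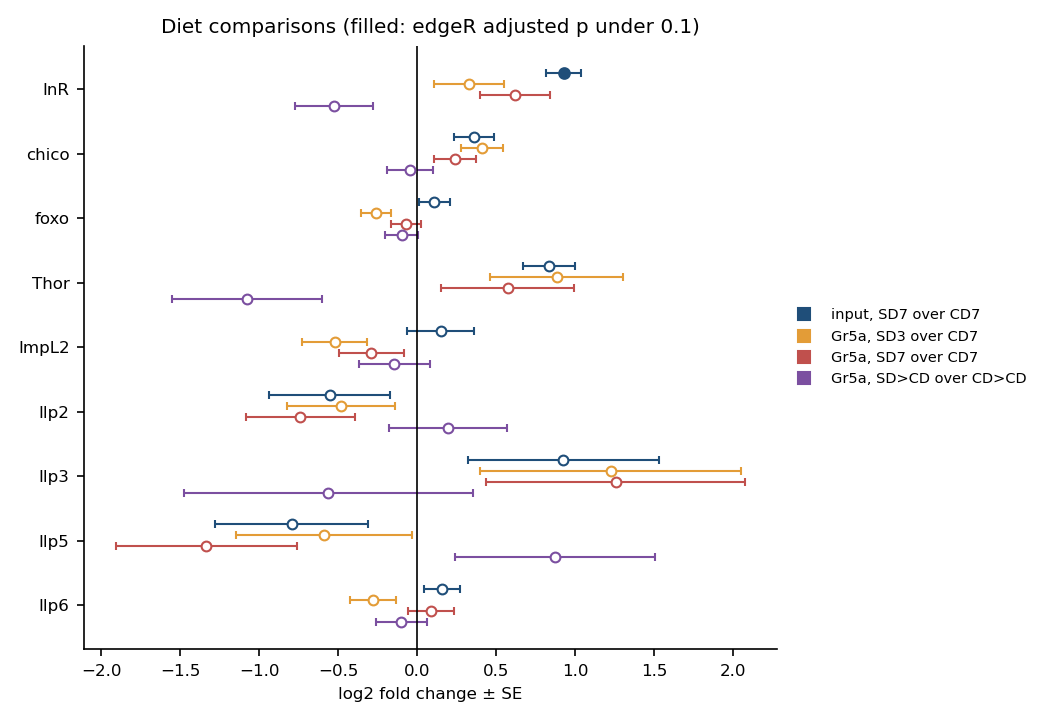
Log2 fold change with its SE (horizontal axis) of the 9 members in the 4 diet comparisons, with filled points for an edgeR adjusted p under 0.1 and open points otherwise. Only InR in the input is filled, at 0.93. InR and Thor lie right of 0 under the sugar diet and left of 0 for SD>CD over CD>CD, where Thor is at 0.29 without CD>CD replicate 2, while Ilp2 and Ilp5 show the opposite signs with wide errors.

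The next comparisons asked whether sugar changed insulin signalling genes in RNA bound to the tagged ribosomes after 3 days and after 7 days. SD3 and SD7 were each set against the same 3 CD7 libraries, so the results of the pair are not independent. No member passed the test at either time. The Thor and InR values were higher in all sugar libraries, and those of Ilp2 and Ilp5 were lower on average.

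Thor had 214 and 217 CPM in the Gr5a fraction of SD3, against 114, 90.4 and 129.7 CPM in that of CD7 (log2 fold change 0.88 ± 0.42 SE, edgeR adjusted p = 0.356). After 7 days it had 142 and 184 CPM in SD7 (0.57 ± 0.42 SE on the log2 scale, edgeR adjusted p = 0.926). No sugar library overlapped a control library at either time. With the 2 groups alone in the fit, Thor passed the test at SD3 (0.94 on the log2 scale, edgeR adjusted p = 0.0566), where 12 alternatives gave an adjusted p of 0.0566 to 0.877.

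InR had 298 and 241 CPM in SD3, against 195, 206 and 214 CPM in CD7 (0.33 ± 0.22 SE on the log2 scale, edgeR adjusted p = 0.488). It had 286 and 335 CPM in SD7 (0.62 ± 0.22 SE on the log2 scale), with an unadjusted edgeR p of 0.0188 and an adjusted p of 0.842. The InR libraries of both sugar groups lay above all 3 CD7 libraries, and the ratio of means was 1.32 at SD3 and 1.52 at SD7. The adjusted p of InR ran from 0.409 to 1.0 over 12 alternatives at SD7.

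The 2 other intracellular members had smaller estimates than InR and Thor at SD7, whereas at SD3 that of chico was above that of InR. The values of chico were 131 and 154 CPM in SD3 and 107 and 129.5 CPM in SD7, against 104, 87.6 and 114 CPM in CD7, with log2 fold changes of 0.41 ± 0.13 and 0.24 ± 0.13 (SE, edgeR adjusted p = 0.306 and adjusted p = 0.921). Those of foxo were 201 and 186 CPM in SD3 and 202 and 212 CPM in SD7, against 226, 213 and 224 CPM in CD7, with -0.26 ± 0.09 and -0.07 ± 0.09 on the log2 scale (SE, edgeR adjusted p = 0.308 and adjusted p = 0.946). Every sugar library was below every control library for foxo and above for chico at SD3, whereas chico overlapped at SD7.

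ImpL2, the secreted antagonist, had 181 and 164 CPM in SD3 and 221 and 156 CPM in SD7, against 281, 238 and 190.4 CPM in CD7. Only SD3 did not overlap CD7, and the log2 fold changes were -0.52 ± 0.21 at SD3 and -0.29 ± 0.20 at SD7 (SE, edgeR adjusted p = 0.316 and adjusted p = 0.926). The spread of the 3 control libraries, at 45.4 CPM (SD), was close to the difference of the SD7 and CD7 means, which were 188 and 236 CPM.

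**Figure D3:**
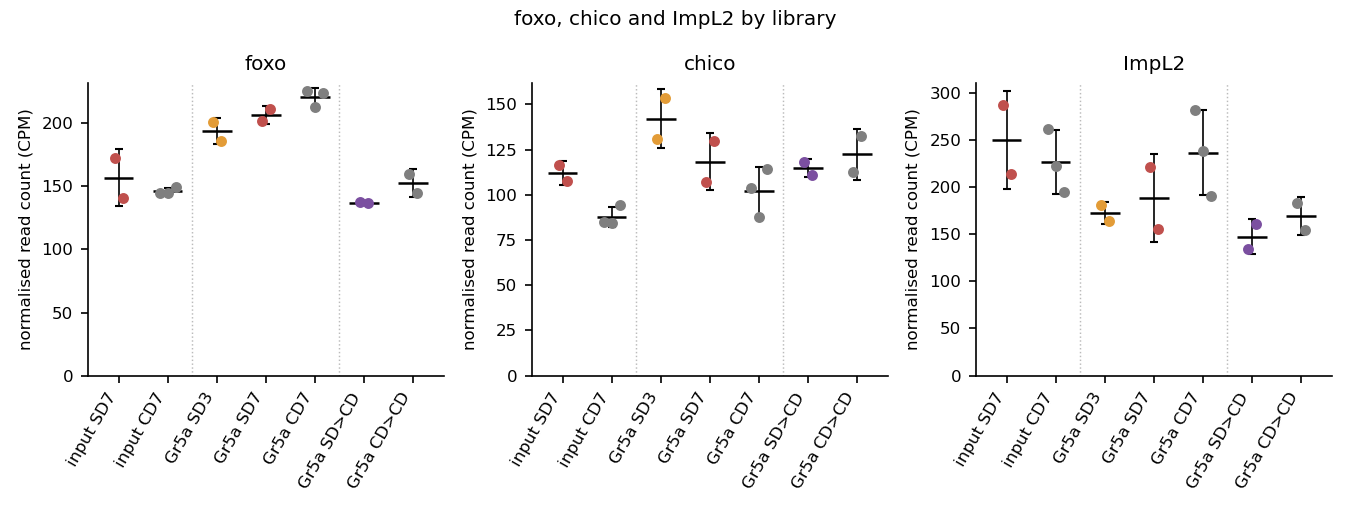
Normalised read count (CPM, linear axis from 0) of foxo, chico and ImpL2 in every library, with the group mean (bar) and SD (error bar, n = 2 or 3). In the Gr5a fraction foxo stays between 186 and 226 CPM in the day-7 and SD3 groups and between 137 and 160.2 CPM in the 14-day groups.

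In the same fraction, Ilp2 had 3.01 and 5.33 CPM in SD3 and 3.79 and 2.64 CPM in SD7, against 7.57, 4.81 and 4.20 CPM in CD7. SD7 lay below CD7 without overlap, and the log2 fold changes were -0.48 ± 0.34 and -0.74 ± 0.35 (SE, edgeR adjusted p = 0.508 and adjusted p = 0.892). Ilp5 had 0.517 and 0.906 CPM in SD3 and 0.480 and 0.300 CPM in SD7, against 1.38, 1.06 and 0.624 CPM in CD7. At SD7 Ilp5 was at -1.34 ± 0.57 on the log2 scale (SE), with an unadjusted edgeR p of 0.0421 and an adjusted p of 0.887. Ilp3 had 1.81 and 0.799 CPM in SD3 and 1.44 and 1.05 CPM in SD7, against 0.754, 0.743 and 0.0814 CPM in CD7, where the lowest library held 3 counts (1.23 ± 0.83 and 1.26 ± 0.82 SE on the log2 scale, edgeR adjusted p = 0.486 and adjusted p = 0.926). Ilp6 had 34.4 and 29.2 CPM in SD3 and 39.6 and 37.3 CPM in SD7, against 36.3, 39.1 and 35.1 CPM in CD7, a difference within the spread at SD7 (-0.28 ± 0.15 and 0.09 ± 0.15 SE on the log2 scale, edgeR adjusted p = 0.382 and adjusted p = 0.953).

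At SD3 edgeR called 0 of 9 members and 0.0436% of 13758 genes, with 3 members (chico, foxo and ImpL2) and 14.6% of all genes at an unadjusted p under 0.05, and 0 members called by DESeq2. At SD7 it called 0 of 9 members and 0% of 13758 genes, with 2 members (InR and Ilp5) at an unadjusted p under 0.05, as were 5.61% of all genes, and 0 members called by DESeq2. Libraries did not overlap for 7 of 9 members at SD3 (40.1% of 11512 genes) and for 6 of 9 at SD7 (17.6%). Fat body markers summed to 3369 and 4042 CPM in SD3 and to 4055 and 6231 CPM in SD7, against 4999 to 8475 CPM in CD7, and neuron markers to 2451 and 2531 CPM in SD3, against 2807 to 4066 CPM in CD7. The sweet taste neuron markers summed to 161 and 220 CPM in SD3 and 124 and 144.5 CPM in SD7, against 102 to 147 CPM in CD7. Midgut markers summed to 2122 and 2055 CPM in SD3 and 1765 and 727.5 CPM in SD7, against 2214 to 4345 CPM in CD7. The part of these marker differences in the member values was not tested.

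The sugar responses of pulled-down and input RNA were compared directly, as the difference of the 2 contrasts at day 7. No member passed, as with 0% of 14185 genes (1391 genes, or 9.81%, had an unadjusted p under 0.05, and DESeq2 called 13 genes and 0 members). InR gave the lowest p of the members, with a difference (Gr5a fraction minus input) of -0.35 ± 0.15 on the log2 scale (SE, edgeR p of 0.0454 unadjusted, adjusted p = 0.487). The difference was -0.31 ± 0.24 for Thor, -0.23 ± 0.14 for foxo, -0.17 ± 0.18 for chico, -0.50 ± 0.30 for ImpL2 and -0.12 ± 0.16 for Ilp6 (SE, edgeR adjusted p of 0.534 to 0.787). For the brain peptide genes it was -0.25 ± 0.54 for Ilp2, -0.60 ± 0.69 for Ilp5 and 0.28 ± 0.88 for Ilp3 (SE, edgeR adjusted p of 0.751 to 0.919), errors too wide to place the responses apart or together.

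To see whether a sugar response remained after the diet was withdrawn, SD>CD was set against CD>CD. No member passed the test, although 13.3% of 13758 genes did, nearly all of them lower in SD>CD (13.1%). Thor alone had an unadjusted edgeR p under 0.05, as had 18.3% of all genes, and DESeq2 called 0 members. The InR and Thor results turned on which CD>CD library was used.

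Thor had 63.3 and 56.7 CPM in SD>CD, against 52.3 and 205 CPM in CD>CD. InR had 194 and 169 CPM in SD>CD, against 194 and 343 CPM in CD>CD. For both genes the SD>CD libraries were close to CD>CD replicate 1, and CD>CD replicate 2 stood above every CD7 library of the Gr5a fraction. The log2 fold change was -1.08 ± 0.47 for Thor and -0.53 ± 0.25 for InR (SE, edgeR adjusted p = 0.26 and adjusted p = 0.303). Without CD>CD replicate 2 it was 0.29 for Thor and 0.00 for InR (edgeR adjusted p = 0.612 and adjusted p = 1.0), and without CD>CD replicate 1 it was -1.79 and -0.93 (edgeR adjusted p = 0.000249 and adjusted p = 0.00314), so that both genes were called as lower. CD>CD replicate 2 is also the library with Lsp2 at 1.62 CPM. CD>CD replicate 1 had the lowest same-strand share of the libraries with strand columns, at 93.62%, against 95.84% in replicate 2. Its share of reads that met no gene or several was 30.61%, against 15.79% in replicate 2. Sweet taste neuron markers summed to 120 CPM in CD>CD replicate 1 and 234.5 CPM in replicate 2, against 233 and 241 CPM in SD>CD. What set the CD>CD libraries apart was not tested.

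None of the other members passed the edgeR test in the 14-day groups. Values of foxo were 138 and 137 CPM in SD>CD, against 160.2 and 145 CPM in CD>CD (-0.10 ± 0.10 SE on the log2 scale, edgeR adjusted p = 0.793). Those of chico were 118 and 111 CPM in SD>CD, against 112 and 132 CPM in CD>CD, and those of ImpL2 were 134 and 160.2 CPM in SD>CD, against 183 and 155 CPM in CD>CD. Both pairs overlapped, with log2 fold changes of -0.05 ± 0.15 and -0.14 ± 0.22 (SE, edgeR adjusted p = 0.958 and adjusted p = 0.888).

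Ilp2 had 5.28 and 6.35 CPM in SD>CD, against 5.95 and 4.63 CPM in CD>CD, and Ilp6 had 35.9 and 41.5 CPM in SD>CD, against 48.2 and 38.1 CPM in CD>CD. Ilp5 had 0.937 and 1.08 CPM in SD>CD, against 0.793 and 0.372 CPM in CD>CD, and Ilp3 had 1.53 and 0.820 CPM in SD>CD, against 0.744 and 2.77 CPM in CD>CD. The log2 fold changes of these peptide genes ran from -0.56 ± 0.92 for Ilp3 to 0.87 ± 0.63 for Ilp5 (SE, edgeR adjusted p of 0.641 to 0.919). Libraries did not overlap for 2 of 9 members (foxo and Ilp5), against 42.2% of 11512 genes.

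The effect of SD>CD over CD>CD was then set against the effect of SD7 over CD7, which share no library. For InR the difference was -1.15 ± 0.33 on the log2 scale (SE, edgeR adjusted p = 0.0601), the 1 call among the members where 12.3% of 13758 genes were called. The InR estimate was 0.62 for SD7 over CD7 and -0.53 for SD>CD over CD>CD. Without CD>CD replicate 2 the difference was -0.62 (edgeR adjusted p = 0.167), without CD>CD replicate 1 it was -1.53 (adjusted p = 0.00079), and over 15 alternatives the edgeR or DESeq2 adjusted p ran from 0.00079 to 0.254. The call was also lost without Gr5a CD7 replicate 1 or 3, SD7 replicate 2 or SD>CD replicate 1 or 2, with adjusted p values of 0.1 to 0.191. Thor differed by -1.65 ± 0.63 on the log2 scale (SE, edgeR adjusted p = 0.171), and by -0.28 without CD>CD replicate 2 and -2.34 without CD>CD replicate 1.

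**Figure D4:**
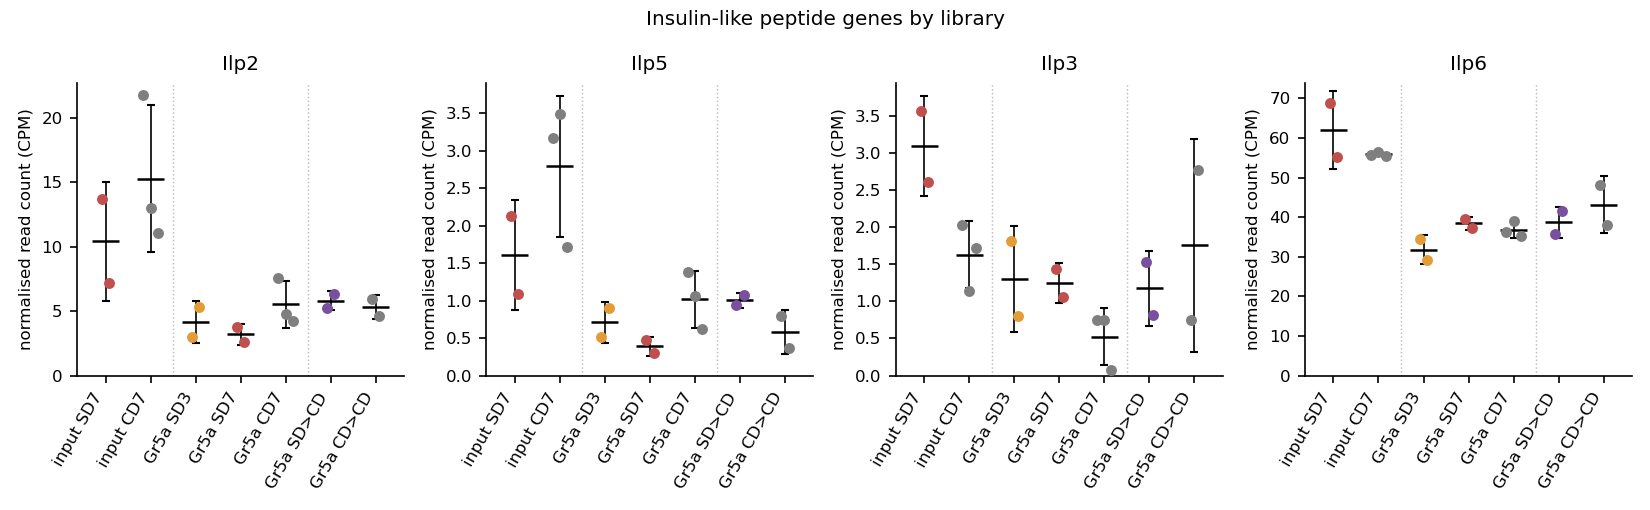
Normalised read count (CPM, linear axes from 0 that differ between panels) of Ilp2, Ilp5, Ilp3 and Ilp6 in every library, with the group mean (bar) and SD (error bar, n = 2 or 3). All 4 genes have lower group means in pulled-down RNA than in the input on the matched diets, and Ilp3 and Ilp5 stay under 4 CPM throughout.

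The Gr5a fraction was compared with input on each diet, to describe which pathway transcripts were pulled down with the tagged ribosomes. These tests treated the libraries as unpaired, although same-numbered libraries of the control diet deviated together (correlations of 0.668, 0.529 and 0.515). On the control diet foxo, Thor and InR were higher in the Gr5a fraction, and all 4 insulin-like peptide genes were lower. On the sugar diet foxo remained higher and Ilp2, Ilp5 and Ilp6 lower, whereas InR, Thor and Ilp3 did not pass the test. Neither chico nor ImpL2 passed on either diet, although chico was called on the control diet without Gr5a CD7 replicate 2 (0.32 on the log2 scale, edgeR adjusted p = 0.0411).

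Between the Gr5a fraction and the input of CD7, foxo differed by 0.60 ± 0.09 on the log2 scale (SE, edgeR adjusted p = 0.00102), with 213 to 226 CPM in the Gr5a fraction and 145 to 149 CPM in the input. Thor differed by 0.67 ± 0.15 (SE, edgeR adjusted p = 0.00735), with 90.4 to 129.7 CPM in the Gr5a fraction and 67.5 to 73.6 CPM in the input. InR differed by 0.30 ± 0.10 (SE, edgeR adjusted p = 0.035), with 195 to 214 CPM in the Gr5a fraction and 153 to 186 CPM in the input. None of the 3 genes overlapped between fractions. Over the members, libraries of the fractions did not overlap for 7 of 9 on the control diet and for 6 of 9 on the sugar diet, against 58.3% and 51.8% of 11512 genes. The call of InR was lost without Gr5a CD7 replicate 3, input CD7 replicate 1 or input CD7 replicate 2 (edgeR adjusted p = 0.108, adjusted p = 0.174 and adjusted p = 0.113).

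All 4 peptide genes were lower in the pull-down than in the input on the control diet. The ratio of the Gr5a fraction to the input of CD7 was 0.361 for Ilp2, 0.323 for Ilp3 and 0.365 for Ilp5, and 0.659 for Ilp6. Their log2 fold changes were -1.47 ± 0.35, -1.61 ± 0.59, -1.44 ± 0.44 and -0.59 ± 0.10 (SE, edgeR adjusted p = 0.00927, adjusted p = 0.0544, adjusted p = 0.0257 and adjusted p = 0.0021), and none of the 4 overlapped between fractions. On the sugar diet the ratio was 0.308 for Ilp2, 0.404 for Ilp3, 0.243 for Ilp5 and 0.62 for Ilp6. Ilp3 lost its call without input CD7 replicate 1 or 3 (edgeR adjusted p = 0.135 and adjusted p = 0.122) and with the unstranded counts (-0.83 on the log2 scale, edgeR adjusted p = 0.46). Reads on the strand opposite Ilp3 reached 179% of its own, at 68 against 38 counts in Gr5a CD7 replicate 2, and those opposite Ilp5 reached 121%. Dsk, the marker shared with the insulin-producing neurons, did not follow the peptides, with 7.98 to 23.8 CPM in the Gr5a fraction and 11.6 to 18.1 CPM in the input of CD7 (0.07 ± 0.35 SE on the log2 scale, edgeR adjusted p = 0.894).

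On the control diet the calls covered 7 of 9 members (3 higher, 4 lower), beside 46.2% of 14185 genes called (24.3% higher and 22% lower). On the sugar diet 4 of 9 members were called (1 higher, 3 lower), beside 18.7% of all genes (10.8% higher and 7.95% lower). In SD7 the log2 fold change over the input was 0.37 ± 0.11 for foxo, -1.71 ± 0.43 for Ilp2, -2.04 ± 0.56 for Ilp5 and -0.71 ± 0.13 for Ilp6 (SE, edgeR adjusted p = 0.0504, adjusted p = 0.0285, adjusted p = 0.0404 and adjusted p = 0.00633). Thor was at 0.36 ± 0.18, InR at -0.05 ± 0.12, ImpL2 at -0.43 ± 0.23, chico at 0.05 ± 0.14 and Ilp3 at -1.33 ± 0.69 on the log2 scale (SE, edgeR adjusted p of 0.25 to 0.874). Whether the fraction difference changed with diet is the interaction given above, which no member passed. Of the SD7 calls only Ilp6 held without each library in turn. Ilp2 and Ilp5 lost theirs without Gr5a SD7 replicate 2 or input SD7 replicate 1 (edgeR adjusted p of 0.133 to 0.227), and foxo without Gr5a SD7 replicate 1 or 2 or input SD7 replicate 2 (edgeR adjusted p of 0.141 to 0.221).

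**Figure D5:**
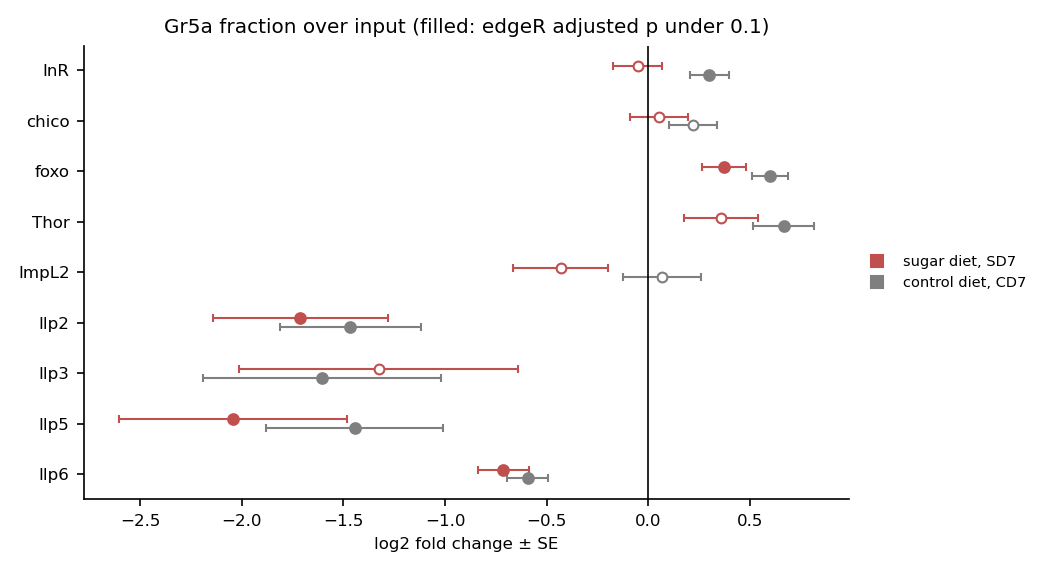
Log2 fold change with its SE (horizontal axis) of the Gr5a fraction over the input for the 9 members on each diet, with filled points for an edgeR adjusted p under 0.1. On the control diet foxo, Thor and InR are filled to the right of 0 and the 4 peptide genes to the left, and on the sugar diet foxo, Ilp2, Ilp5 and Ilp6 are filled.

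The fractions also differed in cell type markers beside these genes. Fat body markers summed to 4999 to 8475 CPM in the Gr5a fraction and 13460 to 19330 CPM in the input of CD7, with apolpp, Apoltp and fit called as lower (3 of 6). All 4 photoreceptor markers were called as lower, and 2 of 4 glial markers (moody and repo) and 7 of 8 midgut markers as higher. None of the 4 neuron markers was called on the control diet. On the sugar diet elav (-0.715 ± 0.16) and nSyb (-0.69 ± 0.19 SE on the log2 scale) were called as lower (edgeR adjusted p = 0.0195 and adjusted p = 0.0384). The neuron markers brp and Syt1 were not called there. The part of these shifts in the values of foxo, Thor, InR and Ilp6 was not tested.

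Beyond the members, 48 genes of the wider pathway were listed, of which 44 were matched in the count tables and 43 were tested. In input SD7 against CD7, 1 of 43 was called by edgeR (0.0705% of all genes) and 14 had an unadjusted p under 0.05 (18.8% of all genes). DESeq2 called 7, namely CCHa2, daw, Lnk, Myc, Pdk1, REPTOR and tobi, beside 860 of 16379 genes. The edgeR call was daw, an activin-like ligand gene known as a Foxo target. It had 167 and 152 CPM in SD7, against 80.8, 82.9 and 73.3 CPM in CD7 (log2 fold change 1.02 ± 0.12 SE, edgeR adjusted p = 0.0214). Like that of InR, the call of daw was lost without input CD7 replicate 1 or 2 or input SD7 replicate 1 (edgeR adjusted p of 0.141 to 0.175). The median log2 fold change of the 43 genes was 0.18, against 0.02 for all genes tested.

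In the Gr5a fraction 0 of 43 pathway genes were called by edgeR at SD3 (0.0436% of all genes) and 0 of 43 at SD7 (0%). At SD3 10 of them had an unadjusted edgeR p under 0.05 (14.6% of all genes), and at SD7 5 (5.61%). DESeq2 called 4 of them at SD3, beside 440 of 16260 genes, and 1 at SD7, beside 60 of 16260. Their median log2 fold changes were -0.07 at SD3 and 0.06 at SD7, against -0.08 and 0.04 for all genes. In SD>CD against CD>CD, 1 of 43 was called (13.3% of all genes), tobi, an alpha-glucosidase gene known as a target of brain insulin signalling and of adipokinetic hormone. It had 8.95 and 13.7 CPM in SD>CD, against 274 and 369.7 CPM in CD>CD (log2 fold change -4.78 ± 0.58 SE, edgeR adjusted p = 0.0011), and the call held without each of the 14-day libraries in turn. The midgut markers of the same libraries were lower too, as given above, and their part in the tobi value was not tested.

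Between the Gr5a fraction and the input of CD7, 9 of 43 pathway genes were called as higher and 6 as lower (24.3% and 22% of all genes), with a median log2 fold change of 0.07, against 0.02 for all genes. The furthest higher were tobi (1.53 ± 0.44), Sdr (1.26 ± 0.25), a secreted decoy of the insulin receptor, and conv (0.92 ± 0.24 SE on the log2 scale, edgeR adjusted p = 0.0219, adjusted p = 0.00448 and adjusted p = 0.0146). The furthest lower were CCHa2 (-1.25 ± 0.19), a nutrient-responsive peptide gene that acts on the insulin-producing neurons, Gbp2 (-0.96 ± 0.20), a growth-blocking peptide gene, and sNPF (-0.66 ± 0.12 SE on the log2 scale, edgeR adjusted p = 0.0013, adjusted p = 0.00541 and adjusted p = 0.00318).

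On the sugar diet 3 of 43 were higher and 10 lower (10.8% and 7.95% of all genes), with a median of -0.12 against 0.00 for all genes. The higher genes were tobi (2.46 ± 0.56), Sesn (0.40 ± 0.11), whose product restrains the TOR kinase, and dome (0.35 ± 0.12 SE on the log2 scale), the receptor gene of the JAK/STAT pathway, with edgeR adjusted p = 0.0196, adjusted p = 0.0352 and adjusted p = 0.0883. The furthest lower were CCHa2 (-1.09 ± 0.24), sNPF (-0.97 ± 0.15) and Gbp2 (-0.72 ± 0.25 SE on the log2 scale, edgeR adjusted p = 0.0161, adjusted p = 0.00398 and adjusted p = 0.0867). The calls of dome, Sesn, tobi, CCHa2 and Gbp2 depended on single libraries. That of dome was lost without each of the 4 SD7 libraries and under DESeq2 (adjusted p = 0.131), that of Sesn without Gr5a or input SD7 replicate 2, that of tobi without Gr5a or input SD7 replicate 1, that of CCHa2 without input SD7 replicate 1, and that of Gbp2 without Gr5a SD7 replicate 2 or input SD7 replicate 1 (edgeR adjusted p of 0.114 to 0.392). The ligand genes Ilp1, Ilp4, Ilp7 and Ilp8 averaged under 1.3 CPM in every group.

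As a description of which genes varied most like each member, Pearson correlations of log2(CPM + 1) over the 16 libraries were ranked among 8862 genes with a mean of at least 5 CPM. The libraries share 7 groups and the 2 fractions, so the values carry no test. InR was most like crp (r = 0.897), cbt (0.885) and mnb (0.876), foxo most like Mrtf (0.951), Pak3 (0.947) and apt (0.93), and chico most like mip120 (0.959). Thor was most like maf-S (0.934), crim (0.93) and fax (0.914), and ImpL2 was the least matched, with Srg3 at 0.845. Among the peptide genes, Ilp5 was most like another member, Ilp2 (0.941), followed by AdipoR (0.911), the adiponectin receptor gene, while Ilp2 was most like CG11211 (0.954), Ilp3 most like CG12116 (0.887) and Ilp6 most like CG17124 (0.968). Ilp5 itself was under the 5 CPM minimum and could not be ranked for Ilp2.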

How the data were processed

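The libraries were made by ribosome pull-down (TRAP) or from head lysate, depleted of ribosomal RNA. The authors aligned reads with STAR to BDGP6 and deposited unnormalised counts for each gene in each library. Their methods name HTSeq, but the layout of the files is that of STAR. The same-strand column was used in 15 libraries (96.49% of strand-specific counts, pooled). Gr5a CD7 replicate 1 holds 1 column, taken as same-strand because it lay close to that column in the group's other libraries. Reads that map to several places were not counted.

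Tests used the quasi-likelihood F test of edgeR 4.0.16 under R 4.3.3 (filterByExpr, TMM, prior count 0.125, Benjamini-Hochberg over all genes tested), called at the study's threshold of an adjusted p under 0.1. The 10 day-7 libraries were fitted together for the input, the fractions and their interaction, and the 11 Gr5a libraries for the diets. SE was the log2 fold change over the square root of F. CPM used TMM factors, except for marker sums and opposite-strand reads, which used library totals. Levels per kb used merged exons of the Ensembl annotation of BDGP6, and 17215 of 17489 genes had a symbol.

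Alternatives were DESeq2 size factors, the DESeq2 1.42.0 Wald test (the study's tool), unstranded counts, a minimum of 10 counts per library, no low-count filter, only the groups compared, the replicate number as a block, and leaving out each library. On the control diet, Gr5a and input libraries with the same number deviated together (correlations of 0.668, 0.529 and 0.515 over 8862 genes). These numbers therefore pair the libraries. The reported tests of Gr5a against input and of the interaction did not use this pairing, so their SE and adjusted p ignore it. The replicate block did use it. The labels call the replicates biological. Counts per library (22901154 to 55290069) limit the precision of the rare peptide genes most. Pathway genes were named where called in a diet comparison, and otherwise up to 3 in each direction by size. The members, lists and tests were chosen with earlier results of these data known. 4 listed symbols (susi, Tor, S6k and Lobe) were not matched and are not analysed here.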

Additional observations from a re-analysis of the deposited data

Results flagged for a closer look

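InR was flagged because its diet effects in the Gr5a fraction differed from each other by a direct test. The effect of SD>CD over CD>CD minus that of SD7 over CD7 was -1.15 on the log2 scale (edgeR adjusted p = 0.0601). The same test called 1 of 9 members and 12.3% of 13758 genes, so the call does not set InR apart from other genes. Without CD>CD replicate 2 the difference for InR was -0.62. Reads on the strand opposite the members, which the comparisons did not use, were scaled to library totals. With at least 10 such counts in every library of both groups, 4 gene and diet pairs were higher in every sugar library than in every control library. Thor had at least 1.05 opposite-strand CPM in input SD7, against at most 0.832 CPM in input CD7, and at least 1.46 CPM in Gr5a SD3, against at most 1.12 CPM in CD7. InR had at least 1.49 CPM in Gr5a SD7, against at most 1.01 CPM in CD7, and chico at least 1.14 CPM in SD>CD, against at most 1.08 CPM in CD>CD. Gr5a CD7 replicate 1 has no such column, so the Gr5a CD7 values come from 2 libraries. With the TMM factors used for the members, the chico values overlapped (at least 1.15 CPM in SD>CD, against at most 1.24 CPM in CD>CD) and the other 3 pairs did not. Another 5 pairs that met the same minimum of 10 counts in both groups ran the other way on both scalings. InR had at most 2.44 CPM in SD>CD, against at least 4.02 CPM in CD>CD, and foxo at most 0.861 CPM in input SD7, against at least 1.12 CPM in input CD7. In the Gr5a fraction, foxo had at most 1.99 CPM in SD7, against at least 2.15 CPM in CD7, and chico at most 0.892 CPM in SD3 and 0.844 CPM in SD7, against at least 1.03 CPM in CD7. Taken as a percent of same-strand counts, Thor overlapped in both of the higher pairs. It was at 0.7526 and 1.307% in input SD7, against 0.6543 to 1.161% in input CD7. In the Gr5a fraction it was at 0.6624 and 1.56% in SD3, against 0.238 and 0.8785% in CD7. InR in SD7 did not overlap, at 0.4902 and 0.6022%, against 0.2665 and 0.466% in CD7. For chico, SD>CD and CD>CD overlapped on this measure. The share of all genes with such orders is not given here, and these differences were not tested. No group has 4 or more libraries, so single libraries could not be tested as apart from their group.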

How the results depend on the processing

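For input SD7 against CD7, 2 members (InR and Thor) were called by the DESeq2 Wald test, with no low-count filter, with only the groups compared and with the replicate block, against 1 in the reported test. With only the groups compared, 1 member (Thor) was called for Gr5a SD3 against CD7 and 2 (Ilp2 and Ilp6) for Gr5a against input SD7. For the difference between the SD>CD and SD7 effects, 0 members were called with at least 10 counts in every library or with unstranded counts, and 2 (InR and Thor) by DESeq2. Leaving out each library in turn gave 0 to 2 members called for input SD7 against CD7, 0 to 2 for SD>CD against CD>CD, 0 to 2 for the difference between effects, 5 to 8 for Gr5a against input CD7, 1 to 3 for Gr5a against input SD7, and 0 to 0 for SD3, SD7 and the interaction. With unstranded counts the sign turned, without a call on either side, for ImpL2 in Gr5a against input CD7 (-0.09 on the log2 scale), for Ilp2 (0.04), Ilp5 (0.07) and Ilp3 (-0.12) in the interaction and for foxo in the difference between effects (0.01). Left-out libraries turned the sign only of values that the reported test did not call. In SD>CD against CD>CD, log2 fold changes ran from -0.22 to 0.12 for chico and -0.22 to 0.01 for Ilp6. There they ran from -1.79 to 0.29 for Thor and -1.24 to 0.75 for Ilp3. The ranges were -0.07 to 0.20 for ImpL2 in Gr5a against input CD7. In Gr5a against input SD7 they were -0.08 to 0.17 for chico and -0.15 to 0.04 for InR. In input SD7 against CD7 they were -0.05 to 0.23 for foxo, -0.02 to 0.30 for Ilp6 and -0.08 to 0.34 for ImpL2. In the interaction they were -0.63 to 0.31 for Ilp2, -0.26 to 0.08 for Ilp6 and -0.21 to 0.62 for Ilp3. In the difference between effects they were -0.06 to 0.00 for foxo and -0.13 to 0.46 for ImpL2. The cause was not tested. Over all genes DESeq2 called 860 against 10 by edgeR for input SD7 against CD7, 440 against 6 for SD3, 60 against 0 for SD7 and 13 against 0 for the interaction, and the 10-count minimum left 144 of 1828 calls for SD>CD against CD>CD. The replicate block called 156 genes for input SD7 against CD7, where the numbers did not deviate together (correlations of 0.19 and -0.136), and ImpL2 in Gr5a against input SD7 (-0.44 on the log2 scale, edgeR adjusted p = 0.032), where the pairs ran against each other (-0.379). It changed no member count by over 1.5 times elsewhere. With those sugar-diet pairs crossed, an alternative chosen after seeing the data, the block called 8 members for CD7, 4 for SD7 and 0 for the interaction, and 7481, 3931 and 1052 genes. Replicate numbers could not be used as a block for SD>CD. Most groups had 2 libraries, and Ilp3 and Ilp5 had 3 to 150 counts. Changes of the rare peptide genes could therefore go uncalled even where they were larger than their SE. In the Gr5a fraction of SD7 against CD7, Ilp5 was at -1.34 ± 0.57 on the log2 scale (SE) with an edgeR adjusted p of 0.887.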
